A study of Mus musculus with 44 samples.

Results

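The comparison set 2 libraries of wild-type (WT) mouse cells treated with RANKL against 2 libraries of WT cells treated with vehicle (Veh), which are 4 of the 44 RNA-seq libraries of the series. Its members were all 24940 genes of the count table, of which 13407 passed a filter on low counts and were tested. The cells are labelled bone marrow-derived macrophages (BMDMs), macrophages grown from marrow precursors in M-CSF, and came from C57BL/6 mice aged 8 to 12 weeks. WT here means NCoR flox/flox mice without Cre, so the gene of the corepressor NCoR was floxed but intact in both groups. The labels give 12 h of RANKL and 6 h of vehicle. The library names carry date stamps, that of vehicle being 536 days later than that of RANKL. The sample records list both groups as BMDMs, whereas the library names of the RANKL group say osteoclast. The study's methods place a 12 h RANKL treatment in the BMDM culture used for RNA-seq. They describe a separate osteoclast culture for ChIP-seq, in which precursors kept for 3 days in 10 ng/ml M-CSF received 50 ng/ml RANKL for 4 days. Ligand, treatment time, date stamp and any difference in culture cannot be told apart in any value below.

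4 further groups of WT libraries received poly I:C, IFNβ, IL4 or KLA (Kdo2 lipid A, a TLR4 agonist) for 6 h, and NCoR knockout cells (NKO, NCoR flox/flox with LysMCre, a Cre driven by the Lyz2 promoter of myeloid cells) received RANKL for 12 h or vehicle for 6 h. The poly I:C, IFNβ, IL4 and NKO vehicle libraries share the stamp of WT vehicle, the NKO RANKL libraries share that of WT RANKL, and the stamp of the WT KLA libraries is 421 days after that of RANKL. The vehicle groups Veh, DMSO_Veh and Pgc1b_flox_Veh, also of 6 h, are used further down. The names of Veh and DMSO_Veh (labelled with DMSO) give C57Bl6 without an NCoR genotype, and Pgc1b_flox_Veh came from Pgc1b flox mice. Each group holds 2 libraries. Nothing states that the 2 came from separate cultures or animals, so p-values measure only the spread between these libraries, which may be technical.

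RANKL (gene Tnfsf11) is a TNF-family ligand of osteoblasts, osteocytes and T cells, and its receptor RANK (Tnfrsf11a) sits on macrophages and osteoclast precursors. RANK has no enzyme activity and signals through TRAF adaptors to NFκB and MAP kinases. These signals, joined by costimulation from ITAM adaptors, raise FOS and then NFATc1, the factor that directs osteoclast formation. Over several days with M-CSF, precursors fuse into multinucleated cells that seal onto bone by an actin ring, acidify the space beneath by a vacuolar proton pump (V-ATPase) and digest matrix with cathepsin K and metalloproteinases. OPG (Tnfrsf11b) is a decoy receptor, and factors such as IRF8 and BCL6 hold the programme back.

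The 4 libraries held between 11.2 M and 12.3 M counts in genes, 84.3% to 85.4% of their mapped reads. Levels are given as CPM, counts per M counts in genes after TMM scaling, a level of 3 counts being 0.206 CPM in vehicle and 0.203 CPM with RANKL. This floor covers counting error only. The median gene differed by 0.136 on the log2 scale between the vehicle libraries, by 0.102 between the RANKL libraries and by 0.555 between the groups. The vehicle pair had the highest chi-square per degree of freedom of the 12 pairs of the table, 6.16 against 2.00 for the RANKL pair, whereas the correlation of log2 CPM within the pair was 0.991 and 0.992. On the second principal component, which held 19.7% of the variance, the 4 RANKL libraries of both genotypes lay between 96.5 and 99.4 and all the other 20 at 13.1 or below.

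Labels were checked on marker genes. Ncor1 (NM_001252313, chromosome 11, 62316426 to 62438515, mm10) had 162 and 169 CPM in vehicle and 133 and 139 CPM with RANKL, against 52.7 and 49.4 CPM in the NKO RANKL libraries. Xist, the RNA of the inactive X chromosome, was present in all 4 libraries at 740.4 and 730.4 CPM in vehicle and 1077 and 1109.6 CPM with RANKL. The macrophage genes Adgre1 (encoding F4/80), Csf1r (the M-CSF receptor) and Cd68 were abundant in both groups, and Csf1r had 2573 and 2785 CPM in vehicle and 1330.2 and 1293 CPM with RANKL. Of the defining osteoclast genes, Oscar was at 3 counts or fewer and Calcr, the calcitonin receptor, at 1 count or 0 in each of the 4 libraries. Among the other osteoclast markers, Acp5, Dcstamp, Ocstamp and Itgb3 were called higher with RANKL, as given below. Ctsk, Mmp9 and Nfatc1 were not called, and Atp6v0d2 was called lower.

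The RANKL libraries also held more neutrophil, platelet and mast cell transcripts than the other WT libraries did. The neutrophil list (S100a8, S100a9, Ly6g, Mpo, Elane, Camp, Ltf and Ngp, mostly granule proteins) summed to 3.56 to 7.98 CPM in vehicle, to 3.15 to 13.5 CPM in the other WT groups and to 1304 to 1435 CPM with RANKL. All 8 of 8 were called higher, and Elane, Ly6g and Mpo had 0 counts in both vehicle libraries. The erythroid and megakaryocyte list summed to 0.825 to 0.889 CPM in vehicle and to 62.2 to 67.0 CPM with RANKL, nearly all of it from the platelet genes Itga2b, Gp1bb and Gp9. Hba-a1 had 2 and 3 counts and Hbb-bs 0 counts with RANKL, so red cell globins were at or under the floor. Of 5 mast cell and basophil genes 4 were tested, and of 8 B and T cell genes 5, all called higher. Of 8 stroma, bone and endothelium genes 7 were tested and 6 called higher (not Sp7). Over all genes, 24.1% were called higher. Members near 0 in vehicle can pass the count filter through the RANKL libraries, in which case a higher call was nearly fixed beforehand. The mast cell and basophil list summed to 0.274 to 0.344 CPM in vehicle and to 3.40 to 4.46 CPM with RANKL. The B and T cell list went from 2.34 to 2.53 CPM to 8.93 to 9.29 CPM but was higher still under KLA (19.2 and 18.3 CPM) and poly I:C (22.1 and 23.4 CPM). The stroma, bone and endothelium list went from 73.8 to 82.8 CPM to 178 to 198 CPM. The NKO RANKL libraries, of the same stamp, held 1773 to 1832 CPM of the neutrophil list and 104 to 116 CPM of the erythroid and megakaryocyte list. In bulk samples, fewer cells of a type and less RNA per cell cannot be told apart. The part of such cells in the gene results below was not tested.

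**Figure D1:**
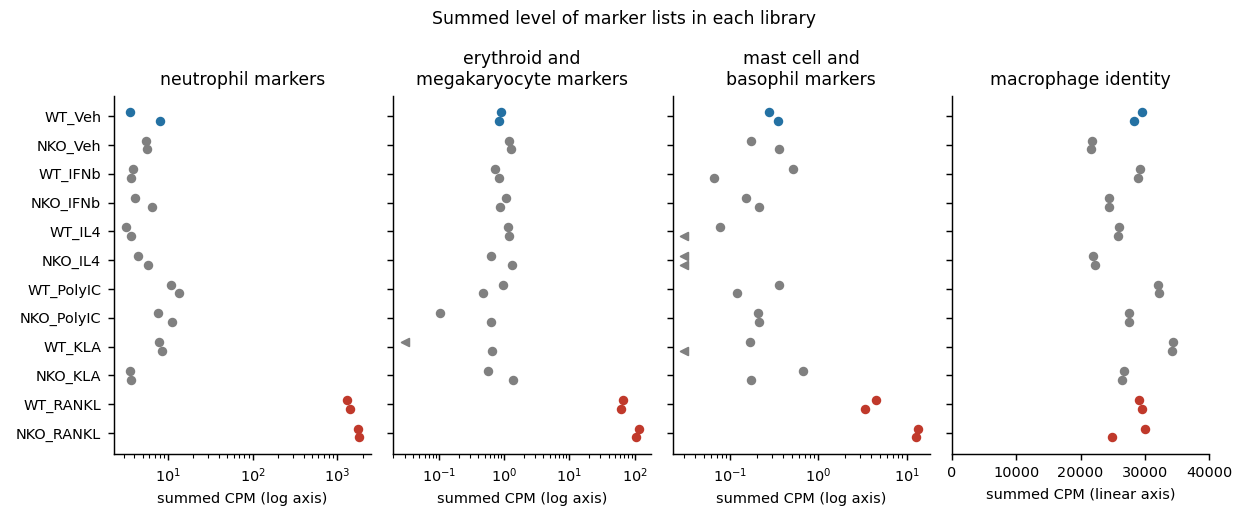
Summed CPM of 4 marker lists (horizontal axis, logarithmic for 3 lists and linear for macrophage identity) in each of the 24 libraries of the table (1 point each, 2 per group), with vehicle in blue and both RANKL groups in red. Left-pointing triangles mark libraries in which the list sums to 0. Neutrophil, platelet and mast cell markers stand apart in the RANKL libraries. The macrophage identity sum was 28303 to 29549 CPM in vehicle and 29057 to 29609 CPM with RANKL. It is dominated by Lyz2, which rose, whereas 15 of the 22 members were called lower, so the level sum does not mean level members.

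Against vehicle, 3225 genes were called higher and 2648 lower with RANKL, or 24.1% and 19.8% of the 13407 tested (43.8% in all). A call required an adjusted p under 0.05 in edgeR's quasi-likelihood F-test with Benjamini-Hochberg adjustment and a fold change above 1.5. Changes above 2-fold numbered 2018 higher and 1410 lower, above 4-fold 844 and 351, and above 10-fold 364 and 67. The median log2 fold change over all tested genes was 0.020. The shares 24.1% and 19.8% are the background for every count of list members that follows. For counts against the other 3 vehicle groups of the series, described further down, the background was 25.9% higher and 20.9% lower (Veh), 24.9% and 21.7% (DMSO_Veh) and 19.9% and 14.7% (Pgc1b_flox_Veh), and for genes beyond every other WT group, vehicle included, it was 11.5% higher and 4.48% lower. Fold changes are RANKL over vehicle on the log2 scale, with the SE given after ±.

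**Figure D2:**
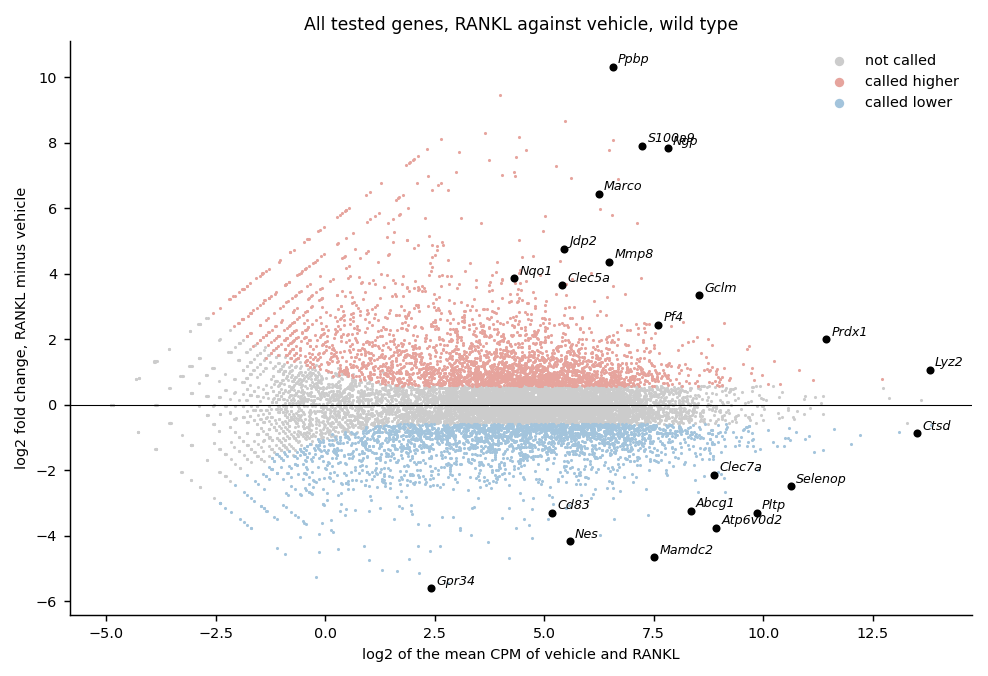
Log2 fold change (RANKL minus vehicle, WT) against the log2 mean CPM of both groups for 13199 of the 13407 tested genes (1 point each), with genes called higher in red and called lower in blue. The 208 genes with 0 counts in both libraries of a group are left out, and the labelled genes are described in the text. Among the most abundant called genes Lyz2 lies above 0 and Ctsb and Ctsd below, and Ppbp lies highest of those drawn.

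The genes with the largest increases were mostly those of granulocytes and platelets. Mpo (NM_010824, chromosome 11, 87793784 to 87804412), encoding myeloperoxidase of neutrophil granules, had 0 counts in both vehicle libraries and 115 and 103 CPM with RANKL. By its RANKL mean it was at least 528-fold higher against the floor of 3 counts per library, and the bounds that follow also use RANKL means. Elane (neutrophil elastase) was at least 145-fold higher by the same bound, and Prtn3 (proteinase 3) went from 0 and 1 counts to 494 and 439 counts. Among platelet genes, Ppbp (pro-platelet basic protein) had 3 and 1 counts in vehicle and 2715 and 2862 counts with RANKL, a log2 fold change of 10.32 ± 0.22. Gp5 and Gp9, subunits of the platelet von Willebrand factor receptor, were at least 77.2-fold and 36.6-fold higher, and Mmrn1 (multimerin 1) at least 74.1-fold. The others of the 12 were Slc6a4 (the serotonin transporter), Cacng8, Retnlg, Wfdc21 and Tnfsf4 (OX40 ligand), each with 0 counts in both vehicle libraries and at least 35.6-fold to 57.3-fold higher.

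The 12 largest decreases were of another kind. Gpr34, encoding a lysophosphatidylserine receptor of macrophages and microglia, had 12.9 and 7.87 CPM in vehicle and 0.0654 and 0.349 CPM with RANKL, a log2 fold change of -5.61 ± 0.38. The adhesion molecule Nrcam went from 12.2 and 15.1 CPM to 0.196 and 0.419 CPM (-5.44) and the WNT antagonist Dkk2 from 8.12 and 6.43 CPM to 0.0654 and 0.488 CPM (-4.70). Nes, encoding the intermediate filament nestin, fell from 98.8 and 82.2 CPM to 3.99 and 6.14 CPM, and Mamdc2 from 366 and 336 CPM to 12.0 and 15.9 CPM (-4.66). The remaining 7, Mill2, Tox2, Gprc5c, Sult1a1, Tpbgl, Tmem178 and Cpe (carboxypeptidase E), had log2 fold changes from -5.12 to -4.19. In none of the 24 genes did the libraries of the groups overlap, which the rule that named them required.

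By difference in CPM, the top genes were those of macrophage secretion, iron and redox. Lyz2 (lysozyme M, NM_017372, chromosome 10, 117277541 to 117282272) had 9288 and 9129 CPM in vehicle and 19373 and 19094 CPM with RANKL, a log2 fold change of 1.06 ± 0.086. Ftl1 (ferritin light chain) went from 5013 and 4823 CPM to 8719.9 and 8155 CPM (0.78) and Spp1 (osteopontin, a secreted matrix protein of macrophages and bone cells) from 1336 and 988 CPM to 2377 and 2530.0 CPM (1.08). Vim (vimentin, 0.77) and Pgd (of the pentose phosphate pathway, 1.70) also rose, and Prdx1, Pkm and Hmox1 are given with their pathways below. On the other side stood the lysosomal proteases Ctsd (15919 and 14134 CPM to 8274 and 8195 CPM, -0.87) and Ctsb (-0.62), Gpnmb (-0.84), the pore-forming Mpeg1 (-1.21), galectin 3 (Lgals3, -0.93), Sirpa (-1.37) and Itm2b (-1.45). Selenop, the selenium carrier selenoprotein P, fell the most of these 8 on the log2 scale, from 2994 and 2392 CPM to 505 and 457 CPM (-2.49 ± 0.13). Several of these calls depended on the vehicle group. Ctsb was not called against any of the other 3, and Ctsd, Ftl1 and Vim were not called against Veh or Pgc1b_flox_Veh. Against Pgc1b_flox_Veh, Selenop (-0.30), Itm2b (-0.11), Mpeg1 and Pkm were not called either.

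**Figure D3:**
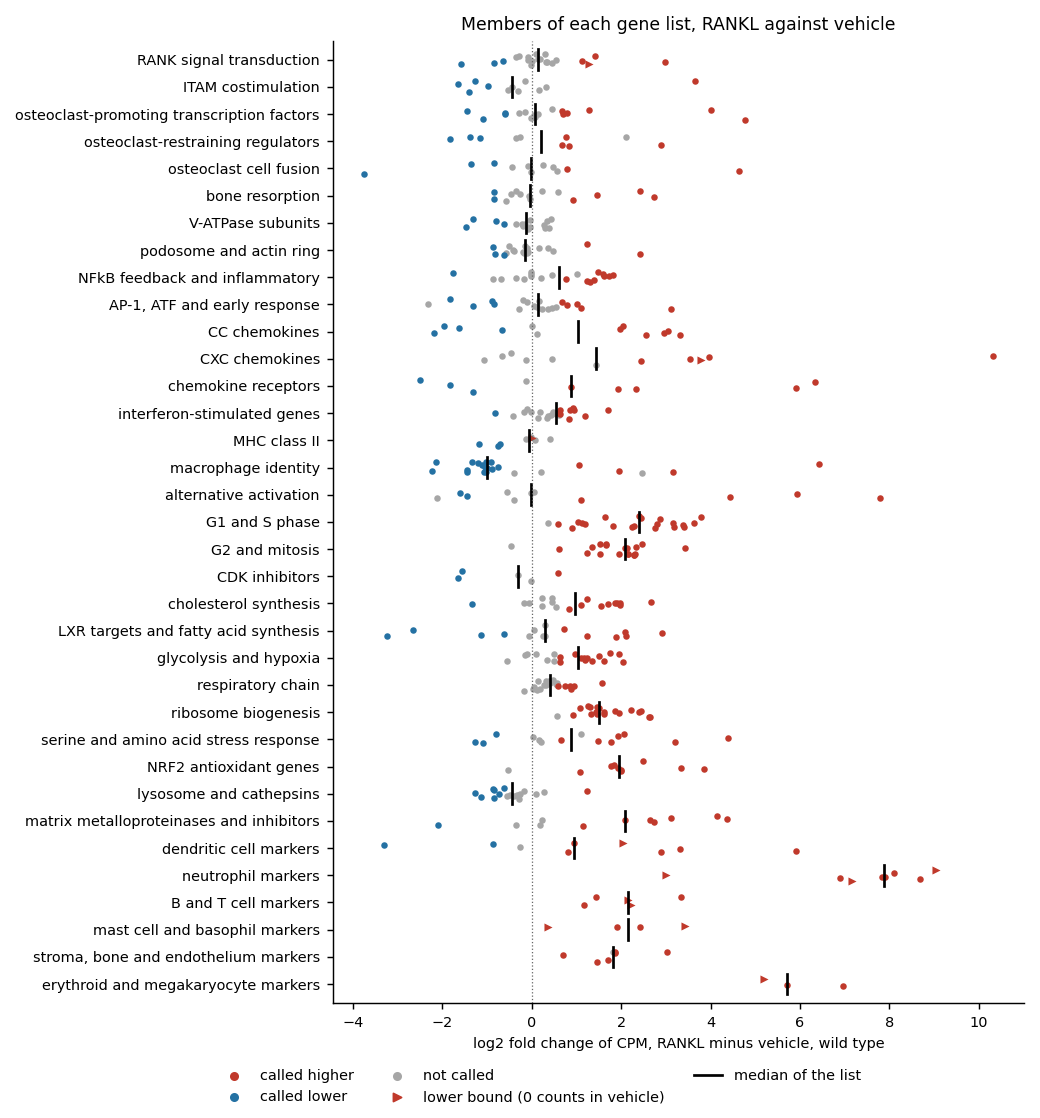
Log2 fold change (RANKL minus vehicle, WT) of each tested member of 35 gene lists (1 point per gene, spread vertically for clarity), red where called higher, blue where called lower and grey where not called. Triangles are lower bounds for members with 0 counts in both vehicle libraries, and black bars are list medians, with such members at their bound. Cell cycle, ribosome biogenesis and NRF2 lists lie to the right of 0, macrophage identity to the left, and the osteoclast lists on both sides.

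Among the genes of RANK signalling, Traf1, Traf2 and Traf3 rose and the receptor itself was not called. Of 21 members of the list (receptor, ligand, TRAFs and kinases), 4 were called higher and 3 lower, with a median log2 fold change of 0.14. Tnfrsf11a (NM_009399, chromosome 1, 105780723 to 105847981), encoding RANK, had 127 and 144 CPM in vehicle and 198 and 198 CPM with RANKL, so the groups did not overlap, but its log2 fold change of 0.55 ± 0.057 stayed under the 1.5-fold limit of a call. The decoy receptor gene Tnfrsf11b overlapped between the groups, at 2.27 and 1.03 CPM in vehicle and 1.90 and 2.16 CPM with RANKL. Tnfsf11, the ligand gene, had 0 counts in both vehicle libraries and 12 and 3 counts with RANKL. Its RANKL mean was 2.42 times the floor of 3 counts, but RANKL replicate 2 lay at that floor, so the increase rests mostly on 1 library.

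Traf6, the adaptor on which RANK mainly depends, was at 36.7 and 38.2 CPM in vehicle and 40.9 and 38.3 CPM with RANKL and was not called (0.083 ± 0.082). Traf1, an NFκB-induced TRAF, rose from 10.7 and 12.3 CPM to 89.3 and 91.4 CPM (2.97 ± 0.085). Traf3, a brake on the noncanonical NFκB pathway, rose from 29.8 and 35.6 CPM to 88.9 and 86.1 CPM (1.42 ± 0.080) and was called higher than in each other WT group. Traf2 (1.12) was also called higher and Traf5 (-0.64) lower. Gab2, a scaffold bound to RANK, fell from 155 and 162 CPM to 54.2 and 50.9 CPM (-1.59 ± 0.062) and was lower than in each other WT group. Mapk3 (ERK1, -0.85) was called lower, whereas Mapk14 (p38α, -0.079) and Src (-0.075) were not called.

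ITAM costimulation genes were lower where they were called, with 1 exception. Of 12 members, 11 were tested (all but Oscar), 1 was called higher and 4 lower (median -0.44). Trem2, a DAP12-coupled receptor of macrophages and osteoclasts, fell from 1184 and 1051 CPM to 460.2 and 467 CPM (-1.27 ± 0.055). Fcgr3, an Fcγ receptor that couples to FcRγ, fell from 732 and 681 CPM to 222 and 224 CPM (-1.66), the adaptor Blnk fell by 1.40 and the kinase gene Syk had a log2 fold change of -0.98. Clec5a (MDL-1, a DAP12-coupled lectin) went the other way, from 6.53 and 5.82 CPM to 77.8 and 77.8 CPM (3.65 ± 0.10). The adaptors themselves, Tyrobp (DAP12, -0.53) and Fcer1g (FcRγ, -0.44), lay below vehicle in both libraries but were not called.

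The transcription factors that promote osteoclast formation split, 6 of 17 called higher and 4 lower (median 0.073). Nfatc1, encoding the directing factor, was not called: its 48.7 and 45.5 CPM with RANKL lay below its 55.03 and 59.5 CPM in vehicle (-0.28 ± 0.076). Fos rose from 158 and 186 CPM to 282 and 265 CPM (0.67 ± 0.056), with no overlap of the libraries, and the related Fosl2 by 0.78. Jdp2, an AP-1 family factor required in osteoclasts, rose from 2.82 and 3.35 CPM to 89.9 and 78.8 CPM (4.77 ± 0.13), and the poly I:C libraries were at 89.3 and 89.3 CPM. Nfkb2, the p100 precursor of noncanonical NFκB, rose from 71.2 and 75.0 CPM to 181 and 176 CPM (1.28), whereas Rela (-0.59) was called lower and Nfkb1 (-0.15) and Relb (0.073) were not called.

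Myc had the second largest increase of that list. It rose from 8.46 and 7.12 CPM in vehicle to 129 and 122 CPM with RANKL, a log2 fold change of 4.01 ± 0.10 with an adjusted p of 8.46e-41 in edgeR's quasi-likelihood F-test with Benjamini-Hochberg adjustment. The IL4 libraries came closest among the other WT groups, at 34.5 and 31.5 CPM, and Myc was called higher than in each of them. Ppargc1b, encoding the coactivator PGC1β, was low but called higher (3.44 and 4.17 CPM to 6.54 and 5.79 CPM). Pparg (-1.46), Prdm1 (BLIMP1, a repressor of the restraining factors, -1.08) and Mitf (-0.59) were called lower. The calls of Mitf and Rela rest near the threshold, and the count of 4 lower became 2 without WT_Veh replicate 2 or without WT_RANKL replicate 2. Fosl2 was not called against any of the other 3 vehicle groups, and Prdm1 not against Pgc1b_flox_Veh.

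The regulators that restrain osteoclasts also moved both ways, 4 of 10 higher and 3 lower. Irf8 fell from 227 and 223 CPM to 85.0 and 87.2 CPM (-1.38 ± 0.060) and Bcl6 from 123 and 134 CPM to 58.0 and 56.5 CPM (-1.16 ± 0.069). Both encode repressors of the osteoclast programme and were lower than in every other WT group. Id1 (2.89) and Id3 (0.67), inhibitors of helix-loop-helix factors, Rbpj (0.83) and Tnfaip3 (A20, 0.77) were called higher.

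Fusion and resorption genes gave no common direction. Dcstamp (NM_001289506, chromosome 15, 39745930 to 39760938), encoding the membrane protein needed for fusion, rose from 11.6 and 8.55 CPM to 17.99 and 16.9 CPM (0.79 ± 0.13), and its partner Ocstamp from 4 and 0 counts to 49 and 59 counts. Ocstamp was at 4.09 and 2.00 CPM under IL4 and 3.20 and 4.12 CPM with RANKL, and was not called between these groups. Atp6v0d2, the d2 subunit of the V-ATPase that also serves fusion, fell from 987 and 811 CPM to 67.0 and 66.3 CPM, a log2 fold change of -3.75 ± 0.068 with an adjusted p of 4.03e-45 in edgeR's quasi-likelihood F-test with Benjamini-Hochberg adjustment. Every other WT group had more, the nearest being KLA at 146 and 146 CPM. In all, 2 of 11 fusion genes were called higher and 3 lower.

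Acp5 (NM_007388, chromosome 9, 22126727 to 22130598), encoding the tartrate-resistant acid phosphatase used as an osteoclast stain, rose from 27.3 and 21.6 CPM to 47.5 and 45.1 CPM (0.92 ± 0.094, adjusted p = 2.48e-12, the same edgeR test and Benjamini-Hochberg adjustment). The levels in KLA, 41.6 and 41.7 CPM, were close to it, and Acp5 was not called against all other WT groups. Itgb3, the β3 chain of the bone-binding integrin, rose from 16.2 and 11.2 CPM to 73.1 and 74.0 CPM (2.43 ± 0.11), and the membrane metalloproteinase Mmp14 from 17.5 and 26.5 CPM to 148 and 146 CPM (2.74 ± 0.15). Car2 (carbonic anhydrase 2) was low and called higher, from 8 and 9 counts to 27 and 21 counts. Ctsk (cathepsin K) was at 26.6 and 23.7 CPM in vehicle and 23.8 and 24.3 CPM with RANKL, and the libraries of Mmp9 overlapped as well. Of 15 bone resorption genes, 14 were tested, 4 called higher and 2 lower (Plekhm1, -0.85, and Slc37a2, -0.84). Against the other 3 vehicle groups of the series, 5 or 6 of 12 were higher and at most 2 lower.

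**Figure D4:**
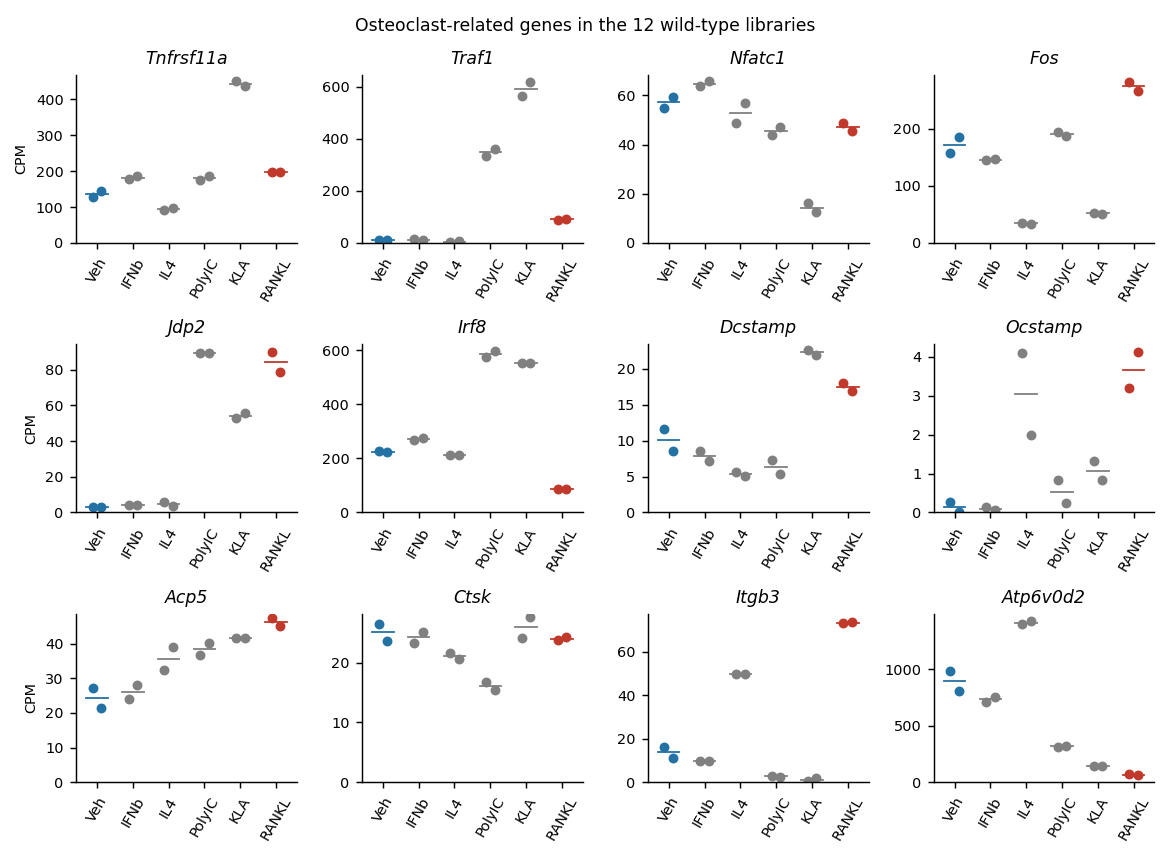
CPM (vertical axis, linear, from 0) of 12 osteoclast-related genes in the 12 WT libraries, by treatment (horizontal axis), with 1 point per library and a bar at the group mean, vehicle in blue and RANKL in red. The means of Itgb3, Fos and Acp5 are highest with RANKL, those of Jdp2 under poly I:C and of Dcstamp under KLA (22.6 and 21.998 CPM) lie above RANKL, and Irf8 and Atp6v0d2 are lowest with RANKL.

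None of the 16 V-ATPase subunits was called higher and 4 were lower, among them Atp6v0a1 (579 and 576 CPM to 229 and 232 CPM, -1.32), Atp6v0c (-1.46) and Atp6v1a (-0.81). The 18 podosome and actin ring genes held 2 higher and 3 lower calls. Dock5, an exchange factor for RAC used by osteoclasts, rose from 24.7 and 31.0 CPM to 63.1 and 69.1 CPM (1.25 ± 0.093) and was higher than in every other WT group. Ptk2b (PYK2, -0.82), Vav3 (-0.63) and Wipf1 (-0.86) were called lower. Actin-linker genes such as Vcl (0.36), Pxn (-0.39) and Tln1 (-0.42) did not reach the limit of 1.5-fold.

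Most macrophage identity genes fell. Of 22 members, 15 were called lower and 4 higher (median -1.01), against 19.8% lower over all genes. Adgre1 fell from 1792 and 2082 CPM to 955 and 945 CPM (-1.03 ± 0.054), and Csf1r (-1.03) and Cd68 (-1.07, 2209.8 and 2049 CPM to 1028 and 1003 CPM) fell as well. The complement genes C1qa (-1.04), C1qb (-0.998) and C1qc (-1.34) and the transcription factor gene Maf (-1.44) were lower together. Mertk, a receptor for apoptotic cells, fell from 144 and 142 CPM to 53.0 and 51.1 CPM (-1.46), and Clec7a (dectin 1) from 821 and 702 CPM to 177 and 168 CPM (-2.14). The 4 higher members were Lyz2, Vsig4 (5 and 4 counts to 52 and 32 counts) and the scavenger receptors Marco, from 0.825 and 2.60 CPM to 145 and 154 CPM (6.44), and Msr1, from 114 and 164 CPM to 523 and 545 CPM (1.94). The size of this group of lower genes depended on the vehicle used: 12, 8 and 4 of 21 members were lower against Veh, DMSO_Veh and Pgc1b_flox_Veh. Against Pgc1b_flox_Veh, C1qa (1.06) and C1qb (0.70) were called higher and Csf1r (0.070) was not called.

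Lysosomal genes were also mostly lower where they were called, 7 of 18 lower and 1 higher (median -0.44). Besides Ctsd and Ctsb, the lower members included Ctss (3953 and 3898 CPM to 2376 and 2328 CPM, -0.74), Hexa (-1.13) and Tfeb, the lysosomal master regulator (97.0 and 97.8 CPM to 42.0 and 38.7 CPM, -1.27 ± 0.068). Ctsc, which activates granule proteases of neutrophils, rose from 77.2 and 162 CPM to 284 and 284 CPM (1.24 ± 0.21), and its vehicle libraries were far apart. Against Pgc1b_flox_Veh, 3 of the 18 were higher and 3 lower.

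Cell cycle genes rose almost without exception. Of 21 genes of G1 and S phase, 20 were called higher and none lower (median 2.41), and of 19 of G2 and mitosis 18 were higher and none lower (median 2.08), against 24.1% higher over all genes. The 6 subunits of the MCM helicase, which unwinds DNA at replication origins, all rose, with log2 fold changes from 2.24 for Mcm4 to 3.40 for Mcm5. Mcm5 (NM_008566, chromosome 8, 75109509 to 75128439) had 17.1 and 22.4 CPM in vehicle and 212 and 204 CPM with RANKL. Cdc6, which loads the helicase, rose from 3.71 and 2.81 CPM to 45.5 and 44.1 CPM (3.78 ± 0.17), cyclin E2 (Ccne2) from 7.50 and 6.02 CPM to 69.9 and 71.0 CPM (3.38 ± 0.14) and the nucleotide enzyme Rrm2 from 15.6 and 12.5 CPM to 123 and 130.1 CPM (3.17 ± 0.16). In none of them did the groups overlap. Cyclin D1 (Ccnd1), which responds to growth signals, rose from 113 and 136 CPM to 421 and 457 CPM (1.82), whereas Ccnd2 was not called (0.37).

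Of the mitotic genes, Top2a (topoisomerase II, NM_011623, chromosome 11, 98992947 to 99024189) rose from 46.8 and 37.0 CPM to 216 and 246 CPM (2.46 ± 0.13), Mki67 (Ki-67) from 56.5 and 46.5 CPM to 221 and 239 CPM (2.16 ± 0.084) and Bub1, of the spindle checkpoint, from 4.75 and 4.24 CPM to 47.2 and 49.9 CPM (3.43 ± 0.21). Cdk1, the kinase of mitotic entry, rose from 17.4 and 15.2 CPM to 65.4 and 72.3 CPM (2.08 ± 0.11). The 1 member not called was Cenpa (-0.46). Among 5 CDK inhibitors, Cdkn1b (p27, 43.5 and 43.3 CPM to 14.5 and 14.9 CPM, -1.56 ± 0.098) and Cdkn1c (p57, -1.65) were lower and Cdkn2c (p18) higher by 0.59. The call of Cdkn2c rests near the threshold. Its log2 fold change was 0.71 against Veh, 0.53 against DMSO_Veh (not called) and -0.26 against Pgc1b_flox_Veh. 15 of the 21 G1 and S genes and 16 of the 19 G2 and mitosis genes were higher than in every other WT group. Against the vehicle group of the Pgc1b table, however, 14 of 18 G1 and S genes were called higher and only 1 of 16 G2 and mitosis genes, with 3 lower. Top2a had 186 and 174 CPM in those 2 vehicle libraries.

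The promoters of Mcm5 and Top2a are shown as the windows of the most changed helicase subunit and of a mitotic gene, since most members of both lists rose against WT vehicle. Each is the stretch of 250 bases before the RefSeq start site (GRCm38.p6), written 5′ to 3′ on the strand of the gene, for Mcm5 chr8:75109259-75109508 on the plus strand and for Top2a chr11:99024190-99024439 on the minus strand. Capitals mark the letters TTTGGCGC or TTTCGCGC (E2F motif) on either strand in Mcm5, where 2 matches on opposite strands overlap, and CCAAT on either strand (the CCAAT box, bound by NF-Y) in Top2a, which has 6.
Mcm5: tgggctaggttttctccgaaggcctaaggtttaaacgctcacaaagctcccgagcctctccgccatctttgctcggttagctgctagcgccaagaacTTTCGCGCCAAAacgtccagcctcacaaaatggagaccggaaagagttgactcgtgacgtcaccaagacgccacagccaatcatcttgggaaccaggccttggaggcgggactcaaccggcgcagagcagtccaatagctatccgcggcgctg
Top2a: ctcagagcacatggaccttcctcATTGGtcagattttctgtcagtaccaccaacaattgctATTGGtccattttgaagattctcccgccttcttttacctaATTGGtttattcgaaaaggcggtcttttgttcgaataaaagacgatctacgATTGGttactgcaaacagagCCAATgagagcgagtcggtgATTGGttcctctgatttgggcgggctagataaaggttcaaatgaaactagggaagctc
CCAAT on either strand lay in 14 of the 15 G2 and mitosis promoters found in the table of windows (93.3%), against 36.2% of all 10385 windows. The E2F letters lay in 2 of 16 G1 and S promoters (12.5%), against 1.22% of all windows. These matches are descriptions of the windows, not sites.

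Genes of ribosome biogenesis, many of which are known targets of MYC, rose with it in the same libraries. Of 19 members, 18 were called higher and none lower (median 1.50). The nucleolar proteins Ncl (239 and 202 CPM to 587 and 624 CPM, 1.45 ± 0.056) and Npm1 (84.3 and 73.7 CPM to 206 and 220.2 CPM, 1.43 ± 0.061) were among them. The box C/D snoRNP proteins Nop56 (1.94) and Nop58 (2.64) and the H/ACA protein Dkc1 (8.74 and 9.44 CPM to 53.6 and 57.8 CPM, 2.61 ± 0.11) rose more, and Polr1a, the large subunit of RNA polymerase I, by 1.33. Pes1 was the member not called (0.57), and 13 of 19 were higher than in every other WT group. Against the other 3 vehicle groups, 14 or 15 of 16 were higher. The MYC E-box CACGTG lay in 1 of 14 of their promoter windows, 7.14% against 8.47% of all windows.

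Glycolysis genes rose and none fell, 13 of 20 being called higher (median 1.03). Pkm (pyruvate kinase) rose from 668 and 699 CPM to 1725 and 1727 CPM (1.34 ± 0.053), Eno1 (enolase) from 79.5 and 85.7 CPM to 262 and 248 CPM (1.63 ± 0.057) and Ldha (lactate dehydrogenase) from 313 and 311 CPM to 663 and 669 CPM (1.09 ± 0.050). The glucose transporter Slc2a1 (GLUT1) rose from 42.8 and 42.4 CPM to 94.0 and 98.5 CPM (1.18). Gapdh, which has many near-identical pseudogenes that can share its reads, had 0.482 and 0.342 CPM in vehicle, and its call is uncertain. Vegfa (-0.56) and Bnip3 (-0.11), targets of hypoxia signalling, were not called. Against the Pgc1b table's vehicle, 4 of 19 members were higher and 1 lower.

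Most cholesterol synthesis genes rose, and Abca1 and Abcg1, which export sterol, fell. In cholesterol synthesis, 10 of 18 were higher and 1 lower (median 0.97), among them the squalene epoxidase gene Sqle (20.4 and 25.5 CPM to 86.4 and 85.4 CPM, 1.91 ± 0.093). Fdft1 was lower (-1.33). Among LXR targets and fatty acid synthesis genes, 6 of 15 were higher and 4 lower (median 0.29). Abca1 (NM_013454, chromosome 4, 53030789 to 53159895) went from 619.9 and 632 CPM to 101.05 and 96.9 CPM (-2.66 ± 0.088) and Abcg1 from 592 and 581 CPM to 62.2 and 62.3 CPM (-3.24 ± 0.056). Both were lower than in every other WT group. Of the fatty acid genes, Scd2 rose from 29.4 and 36.2 CPM to 141 and 136 CPM (2.08 ± 0.12) and the desaturase Fads2 from 2.06 and 3.01 CPM to 18.97 and 19.3 CPM (2.91 ± 0.20). Apoe, an LXR target secreted with lipid, was not called (0.055). With the Pgc1b table's vehicle, 0 of 17 cholesterol synthesis genes were higher and 2 lower (edgeR, called at an adjusted p under 0.05 and 1.5-fold), and Scd2 was called lower, whereas Abca1 and Abcg1 were lower with each vehicle group.

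Antioxidant genes driven by NRF2 rose strongly. NRF2 is a transcription factor released from degradation by oxidants, and 9 of the 10 listed genes were called higher (median 1.96), 8 of them higher than in every other WT group. Gclm, a subunit of the enzyme that limits glutathione synthesis, rose from 61.6 and 71.2 CPM to 701 and 646 CPM (3.34 ± 0.071), and its partner Gclc from 40.2 and 40.5 CPM to 158 and 149 CPM (1.93 ± 0.068). Txnrd1, thioredoxin reductase (NM_001042513, chromosome 10, 82859206 to 82897724), rose from 166 and 164 CPM to 950.5 and 904 CPM (2.49 ± 0.060). Nqo1 rose from 2.75 and 2.33 CPM to 36.5 and 37.4 CPM (3.86 ± 0.17), Prdx1 from 1148 and 1069.6 CPM to 4514 and 4335 CPM (2.00 ± 0.054) and Hmox1 (heme oxygenase 1) from 374 and 359 CPM to 1282 and 1238 CPM (1.78 ± 0.11). The libraries of the groups were far apart in each. Slc7a11, the cystine importer that feeds glutathione synthesis, was at 3.51 and 3.97 CPM in vehicle and 81.4 and 75.2 CPM with RANKL (4.39 ± 0.12). Nfe2l2, encoding NRF2 itself, was not called (-0.52). Against each of the other 3 vehicle groups, 9 of 10 were again higher. The remaining 1 was called lower against Veh and against DMSO_Veh, and was not called against Pgc1b_flox_Veh.

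The promoter of Txnrd1 is shown for the letters of the antioxidant response element core, TGACNNNGC on either strand, in capitals. The window holds the 250 bases before the RefSeq start (GRCm38.p6), chr10:82858956-82859205, plus strand.
Txnrd1: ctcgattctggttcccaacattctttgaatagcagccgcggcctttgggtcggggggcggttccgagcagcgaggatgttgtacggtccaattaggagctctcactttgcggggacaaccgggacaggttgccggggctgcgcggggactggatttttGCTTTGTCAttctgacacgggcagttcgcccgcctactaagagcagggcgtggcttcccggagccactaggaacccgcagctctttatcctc
These letters lay in 5 of the 7 NRF2 promoters with a window (71.4%), those of G6pdx, Gclm, Nfe2l2, Prdx1 and Txnrd1, against 12.2% of all windows.

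In the NFκB feedback and inflammatory list, several feedback genes rose and the levels of most cytokines were low. Of 22 members, 20 were tested, 9 called higher and 1 lower (median 0.61). Nfkbia (NM_010907, chromosome 12, 55489409 to 55492647), encoding the inhibitor IκBα that NFκB itself induces, rose from 46.8 and 59.7 CPM to 190.1 and 186 CPM (1.82 ± 0.067), Nfkbie from 21.05 and 23.9 CPM to 67.4 and 70.8 CPM (1.62 ± 0.075) and Birc3 (cIAP2) from 38.2 and 52.0 CPM to 111 and 111 CPM (1.30 ± 0.085). Tnf rose from 14.5 and 16.3 CPM to 38.001 and 42.3 CPM (1.38 ± 0.093) and Sod2, the mitochondrial superoxide dismutase, from 48.9 and 74.5 CPM to 169.9 and 176 CPM (1.49 ± 0.12). Il6 was at 2 counts or fewer in each of the 4 libraries and Nos2 likewise, whereas Il1b overlapped between the groups, at 1.99 and 7.18 CPM in vehicle and 3.07 and 2.58 CPM with RANKL. Nfkbiz fell from 28.0 and 37.7 CPM to 8.04 and 11.4 CPM (-1.76 ± 0.17). Against KLA and against poly I:C, all 20 tested members were called lower with RANKL, where 24.9% and 25.5% of all genes were.

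The promoter of Nfkbia is shown for the NFκB motif (GGG, any 2 bases, then TTTCC, on either strand) in capitals, the 250 bases before the RefSeq start (GRCm38.p6), chr12:55492648-55492897, minus strand.
Nfkbia: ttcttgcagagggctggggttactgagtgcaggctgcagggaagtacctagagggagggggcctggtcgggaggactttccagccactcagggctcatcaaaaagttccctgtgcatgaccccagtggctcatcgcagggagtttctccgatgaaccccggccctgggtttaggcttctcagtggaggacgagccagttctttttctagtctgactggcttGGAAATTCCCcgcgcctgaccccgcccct
The motif lay in 4 of 17 windows of the list (23.5%; Il1rn, Il6, Nfkbia and Tnfaip3), against 1.49% of all windows.

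AP-1 and early response genes moved both ways, 5 of 20 higher and 4 lower (median 0.14). Fosl1 rose from 1.17 and 1.09 CPM to 9.75 and 10.1 CPM (3.12 ± 0.26) and was higher than in every other WT group. Jund (-0.85), Atf3 (-0.88), Egr1 (-1.83) and the mRNA-decay factor Zfp36 (277 and 344 CPM to 125 and 123 CPM, -1.32) were called lower, each lower than in every other WT group.

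Chemokines of the same family went in opposite directions. Of 12 CC chemokines, 6 were called higher and 4 lower. Ccl3 (23.3 and 26.8 CPM to 6.41 and 9.91 CPM, -1.63 ± 0.21) and Ccl4 (15.1 and 21.8 CPM to 3.66 and 4.46 CPM, -2.18 ± 0.23), which attract monocytes and T cells, were lower than in every other WT group. Ccl2, the main monocyte attractant, rose from 5.43 and 3.28 CPM to 20.8 and 31.0 CPM (2.56 ± 0.37) and Ccl22 from 0.138 and 1.09 CPM to 5.49 and 6.98 CPM (3.31 ± 0.28). Ccl2 was called lower against the Pgc1b table's vehicle. The call of Ccl5 rested on 1 library. It had 2.75 and 20.3 CPM in vehicle and 2.75 and 3.14 CPM with RANKL, and its log2 fold change was -1.97 with both vehicle libraries and 0.094 without WT_Veh replicate 2. Of 11 CXC chemokines, 5 were higher and none lower, among them the platelet chemokines Ppbp and Pf4 (59.1 and 61.6 CPM to 333 and 323 CPM, 2.44 ± 0.060). Cxcl10 (IP-10) rose from 1.38 and 5.1998 CPM to 42.2 and 34.9 CPM (3.55 ± 0.30).

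Among 9 chemokine receptors, 5 were called higher and 3 lower. Ccr2, the CCL2 receptor of monocytes, rose from 12.4 and 17.04 CPM to 48.1 and 64.0 CPM (1.93 ± 0.20) and Cx3cr1 from 18.4 and 24.2 CPM to 99.1 and 117 CPM (2.34 ± 0.16). Cxcr4 fell from 232 and 225 CPM to 65.5 and 62.7 CPM (-1.83 ± 0.061). Cxcr2, of neutrophils, was at 1 and 1 counts in vehicle and 100 and 89 counts with RANKL.

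Interferon-stimulated genes depended on which vehicle libraries were used. Of 23, 10 were called higher and 1 lower (median 0.53). Isg15, a ubiquitin-like antiviral protein, had 3.10 and 11.7 CPM in vehicle and 25.4 and 22.7 CPM with RANKL (1.70 ± 0.32), and Irf7 had 40.9 and 97.6 CPM and 130.3 and 120.0 CPM (0.85 ± 0.27). In both, vehicle replicate 2 was more than 2 times replicate 1, and RANKL lay above either. Bst2 (tetherin) rose from 53.5 and 73.5 CPM to 121 and 119 CPM (0.92 ± 0.079), whereas Ifit2 (23.2 and 77.2 CPM and 63.2 and 51.2 CPM) was not called. The count of higher genes was 3 without WT_Veh replicate 1, 19 without WT_Veh replicate 2, 5 without WT_RANKL replicate 1 and 1 with only the 4 libraries in the fit. Against the vehicle groups of the other tables, 18, 16 and 18 of 20 were higher and none lower. All 23 were called lower with RANKL than with IFNβ (45.0% of all genes were called in either direction), poly I:C or KLA, and 20 of 23 higher than with IL4.

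Matrix metalloproteinases and their inhibitors rose in 7 of 11 cases and fell in 1 (median 2.09). Mmp8, the collagenase of neutrophils, rose from 8.74 and 7.66 CPM to 166 and 174 CPM (4.37 ± 0.096) and Timp3 from 5.57 and 4.52 CPM to 42.8 and 44.4 CPM (3.11 ± 0.13). Timp1 (2.09), Mmp13 (1.14) and Mmp14 were also higher. Timp2 fell from 855 and 846 CPM to 209 and 185 CPM (-2.11 ± 0.058), and the most abundant member, Mmp12, was not called (0.18) but was called lower against each of the other 3 vehicle groups (-1.34 to -0.65).

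Against the other ligands, the RANKL libraries differed in 7943 genes from KLA (59.2% of those tested), 7500 from poly I:C (55.9%), 6390 from IL4 (47.7%) and 6031 from IFNβ (45.0%). All of these contrasts share the RANKL libraries with that against vehicle. The share of all genes called higher with RANKL was 34.3% against KLA, 30.5% against poly I:C and 25.7% against IL4. Of the 21 G1 and S genes, 19, 16 and 20 were higher in these 3 contrasts, of the 19 ribosome biogenesis genes 13, 17 and 18, and of the 10 NRF2 genes 8, 9 and 9. In cholesterol synthesis, 2 of 18 were higher and 8 lower against KLA, 8 higher and 3 lower against poly I:C and 12 higher and 2 lower against IL4. Itgb3 was at 49.9 and 49.7 CPM under IL4, the group nearest to RANKL for that gene, and not called against it. A total of 1548 genes (11.5%) were called higher and 600 (4.48%) lower than in vehicle and in each other group. The 8 higher genes with the largest smallest fold change over the 5 contrasts included Elane, Kcnj5, Mpo, Ppbp, Ms4a3, Prtn3 and Ltf. Ms4a3, of granulocyte-monocyte progenitors, was at 0 CPM in every other WT library and at 5.10 and 4.95 CPM with RANKL. The 8 lower genes were Mill2, Cpe, Pou3f1, Plxdc2, Cd83, Nes, Pltp and Tmem140. Pltp, the phospholipid transfer protein, an LXR target, was at 1611 and 1730.4 CPM in vehicle, no lower than 1222 and 1257 CPM in any other WT group and 179 and 160.3 CPM with RANKL (-3.30 ± 0.076). Cd83, a marker of activated antigen-presenting cells, was at 66.8 and 64.8 CPM in vehicle, 489.9 and 515 CPM under poly I:C and 6.80 and 6.49 CPM with RANKL (-3.30 ± 0.094).

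Vehicle libraries of the other 3 tables stood in for a vehicle of another stamp. They differ from WT vehicle in more than the stamp, namely in the mice their names give and, for DMSO_Veh, in DMSO. These libraries came from separate count tables, normalised together in a joint fit of 12341 transcripts. In it, 3197 genes were higher and 2583 lower against Veh of the RGFP966 table (472 days after the RANKL stamp), 3076 and 2683 against DMSO_Veh of the TBK1i table (578 days) and 2460 and 1816 against Pgc1b_flox_Veh (664 days, male Pgc1b flox mice). The vehicle groups themselves differed, WT_Veh from Veh in 1323 genes (10.7%), from DMSO_Veh in 355 (2.88%) and from Pgc1b_flox_Veh in 2795 (22.6%). Of the 5341 called genes present in the joint fit, 4309 were called in the same direction against Veh and 38 in the opposite one, 4696 and 0 against DMSO_Veh, and 3059 and 109 against Pgc1b_flox_Veh. No vehicle library shares the stamp of RANKL. The neutrophil, NRF2, ribosome biogenesis and G1 and S lists kept over 75% of their members higher with each vehicle group. For neutrophil members near 0 in vehicle, the count filter had nearly fixed this beforehand. The G2 and mitosis list had 81.2% to 93.8% higher with the other 3 and 6.25% with Pgc1b_flox_Veh, the glycolysis list 63.2% to 68.4% and 21.1%, and the cholesterol synthesis list 52.9% to 58.8% and 0%.

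**Figure D5:**
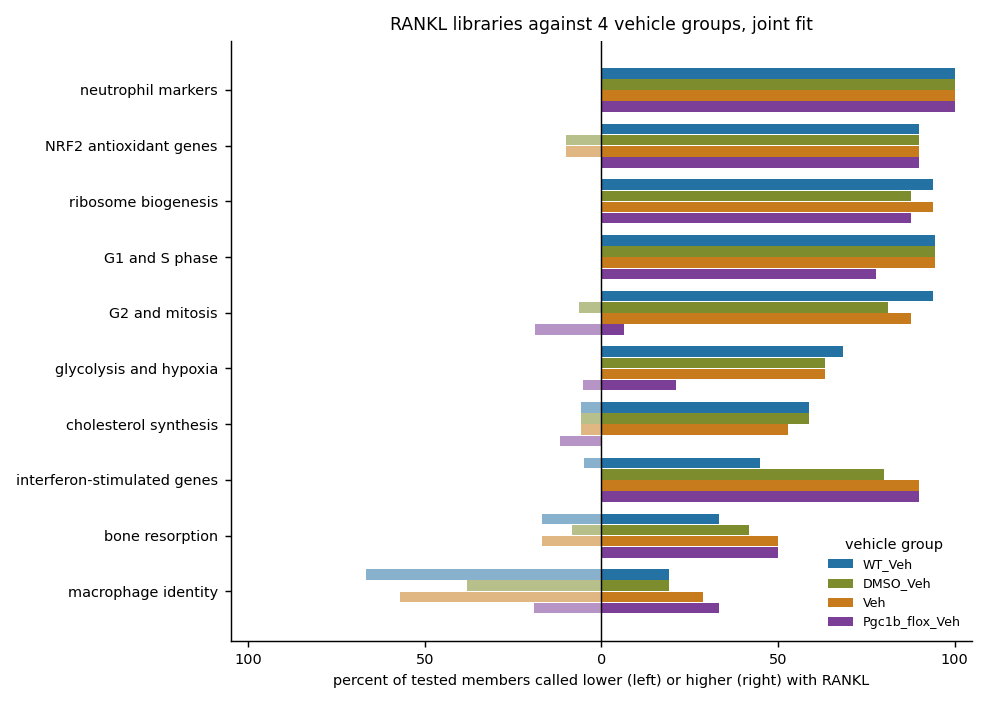
Percent of tested members of 10 gene lists called higher (to the right) or lower (to the left) in the WT RANKL libraries against each of 4 vehicle groups (colours) in the joint fit. The neutrophil list stands at 100 percent higher with all 4, and G2 and mitosis, glycolysis and cholesterol synthesis shrink with Pgc1b_flox_Veh. For neutrophil members that pass the count filter only through RANKL libraries, a higher call was nearly fixed beforehand.

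The same contrast in NKO cells, which shares no library with the WT one but shares its stamps and times, called 3394 genes higher (25.3%) and 2677 lower (20.0%). Of the 3225 genes higher in WT, 2409 (74.7%) were higher in NKO and 16 lower. Of the 2648 lower in WT, 1896 (71.6%) were lower in NKO and 38 higher. The response differed between the genotypes in 1908 genes (14.2%), the log2 fold change being higher in WT in 934 (6.97%) and lower in 974 (7.26%). The neutrophil list was higher in 8 of 8 members in NKO, G1 and S in 18 of 21, ribosome biogenesis in 16 of 19 and NRF2 genes in 9 of 10. As in WT, a higher call was nearly fixed beforehand for neutrophil members that pass the count filter only through RANKL libraries. In the macrophage identity list, 5 of 22 were lower and 8 higher in NKO, against 15 lower and 4 higher in WT, and the response of 12 members was called different, each lower in WT. Interferon-stimulated genes were higher in 22 of 23 cases in NKO, with a called difference in 21, each again lower in WT. That list summed to 853 and 1619 CPM in the 2 WT vehicle libraries, against 592 and 677 CPM in NKO vehicle. These differences were not tested without WT_Veh replicate 2. In the G1 and S list, the response of 15 of 21 was larger in WT and of 1 smaller. Acp5 was at 70.6 and 75.2 CPM in NKO vehicle and 49.3 and 57.7 CPM in NKO with RANKL (-0.45 ± 0.083, not called), and its response differed between genotypes by 1.37 ± 0.13 (adjusted p = 1.74e-12, edgeR's quasi-likelihood F-test of the interaction with Benjamini-Hochberg adjustment). Dcstamp fell in NKO (19.4 and 19.2 CPM to 7.77 and 7.69 CPM, -1.32 ± 0.14) where it rose in WT, a difference of 2.11 ± 0.20 that was called, while Myc, Atp6v0d2 and Jdp2 were called in the same direction in both genotypes (4.13, -3.98 and 2.21 in NKO).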

How the data were processed

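RNA-seq counts per RefSeq transcript came from 4 tables, of which the NCoR table (24 libraries of 12 groups) holds the groups compared here. Per the study's methods, the authors aligned reads with STAR to mm10 (GRCm38) and made the deposited raw read counts with HOMER over the exons of 1 transcript per gene. The methods say that strand-specific reads were counted, and the command in the file headers shows no strand option. Genes that overlap on 1 strand or have near-identical copies are uncertain. The tables also carry DESeq2 fold changes and p-values of the authors' comparisons, which were not used. All sample columns of the tables were assigned to samples, 0 being left out.

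Genes passing filterByExpr (13407 of 24940) were fitted in edgeR 4.0.16 (R 4.3.3) with TMM scaling, a mean for each group over the 24 libraries and robust quasi-likelihood F-tests, with Benjamini-Hochberg adjustment over all tested genes. A call needed an adjusted p under 0.05 and a fold above 1.5. SEs are the absolute log2 fold change over the root of F, and the common biological coefficient of variation was 0.0421. The joint fit with the vehicle groups of the other tables used the same steps. On simulated counts with 12866 genes tested, 100 of 100 genes changed by 2-fold and 100 of 100 changed by 4-fold were recovered. Of the unchanged genes, 3 were called. The simulation changed only 200 genes in all, whereas 5873 genes were called in the data. It therefore does not give the error rate of these calls. Replicate numbers did not pair the samples (correlation of deviations between the groups -0.0044).

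Genes were named by these rules: the 12 with the largest fold change in each direction among called genes at 5 CPM or more in the higher group without overlap of the libraries, the 8 with the largest CPM difference, the 8 with the largest smallest change against all other WT groups, 2 genes that the study names at RANKL (Acp5 and Ocstamp), 2 label checks (Ncor1 and Xist) and members of 35 gene lists. Some genes that these rules cover are not reported here. Members, lists and rules were chosen with earlier results of these data known. Alternatives were DESeq2 1.42.0, its size factors, other count filters, no fold threshold, a replicate block, a fit of only the 4 libraries, leaving out each library and other vehicle groups. Promoter windows are RefSeq sequence of GRCm38.p6.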

Additional observations from a re-analysis of the deposited data

Results flagged for a closer look

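The response to RANKL differed between WT and NKO cells in 84 of the genes named here, by the interaction of treatment and genotype (edgeR's quasi-likelihood F-test, Benjamini-Hochberg adjustment over all genes). Each value is the log2 fold change in WT minus that in NKO. The NKO RANKL and NKO vehicle libraries carry the same 2 stamps as the WT ones, and no explanation was tested.

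A positive difference is not always a larger response in WT: Src and Mmp9 were not called in WT and had log2 fold changes of -1.39 and -1.79 in NKO. Among fusion, resorption and signalling genes the difference was 2.11 for Dcstamp, 1.37 for Acp5, 0.68 for Itgb3, 2.01 for Mmp9, 1.32 for Src, 1.98 for Traf1, 0.90 for Traf2, 0.78 for Traf3 and 1.11 for Dock5. Among the transcription factors that promote osteoclasts it was 2.55 for Jdp2, 1.34 for Nfkb2, 1.14 for Ppargc1b and -0.77 for Fos. The restraining regulators gave -4.28 for Id1, -1.83 for Id3, -0.73 for Irf8, -0.93 for Rbpj and -0.72 for Tnfaip3. The decoy receptor and ITAM genes gave -2.48 for Tnfrsf11b, -0.73 for Fcer1g and -1.49 for Fcgr3. Mmp14 and other metalloproteinase genes gave -1.82 for Mmp14, 0.63 for Mmp12, -0.69 for Mmp13, -1.14 for Timp1 and -1.30 for Timp3.

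Macrophage identity genes gave -0.86 for Adgre1, -1.89 for C1qa, -1.43 for C1qb, -1.48 for C1qc, -0.74 for Clec7a, -1.47 for Maf and -0.78 for Msr1, and the cathepsin gene Ctsc gave -1.66. Chemokine genes gave -3.37 for Ccl2, -1.37 for Ccl3, -2.27 for Ccl4, -2.12 for Ccl22 and -1.65 for Pf4. Chemokine receptors gave -1.39 for Ccr2 and 0.62 for Cxcr4. Interferon-stimulated genes gave -0.81 for Bst2, -3.07 for Ifit2 and -2.35 for Irf7, and vehicle replicate 2 of WT was the higher of its pair for each of them. NFκB and early response genes gave 0.81 for Birc3, -3.47 for Il1b, -1.06 for Tnf, -1.29 for Nfkbiz, -1.43 for Egr1, -1.35 for Fosl1 and -1.38 for Zfp36. Genes of antigen presentation and dendritic cells gave -1.09 for Ciita, -1.49 for H2-Aa, -1.30 for H2-Ab1, -1.03 for H2-DMa, 1.30 for Itgax and -0.99 for Cd83.

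Cell cycle genes gave 1.94 for Bub1, 1.53 for Ccne2, 1.15 for Cdc6, 0.59 for Cdkn2c, 0.83 for Mcm4, 1.49 for Mcm5, 1.24 for Mki67, 1.28 for Rrm2, 1.22 for Top2a and -1.27 for Ccnd2. Metabolic genes gave 0.86 for Abcg1, -0.94 for Apoe, -0.88 for Hmox1, 0.77 for Psat1, 0.85 for Scd2, 1.18 for Shmt2 and -0.92 for Vegfa. Among the genes named for a large change in fold or CPM the difference was -2.23 for Nrcam, 1.23 for Mamdc2, -2.75 for Sult1a1, -1.29 for Tpbgl, -0.80 for Nes, -1.19 for Spp1, -1.74 for Selenop, -0.61 for Itm2b and -1.30 for Plxdc2. The difference was 0.77 for Xist.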

How the results depend on the processing

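Of 190 alternative values of the 26 main counts, 183 were within 1.5 times the main value. Without the fold threshold, 4429 genes were lower with RANKL in WT and 4330 in NKO, 4496 were lower against IFNβ and 4528 against IL4, and 2377 were higher and 1510 lower than in every other WT group. With a mean of at least 5 CPM, 993 genes were higher than in every other WT group. Of the 5873 calls against vehicle, DESeq2 kept 5621 in the same direction, DESeq2's size factors 5848, no filter 5743 and a fit of only the 4 libraries 5519 of the 5670 tested there. Leaving out 1 library kept 5299 to 5361 and turned none, with 3055 to 3127 genes called higher and 2523 to 2607 lower. A replicate block kept 5851 of the 5873 calls, and the numbers alone, with a correlation of deviations of -0.0044, are no sign of pairing.

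Named genes changed direction mostly with the vehicle group. Of the called genes named here and present in the joint fit, 173 were called in the same direction against Veh, 174 against DMSO_Veh and 134 against Pgc1b_flox_Veh, and 10, 10 and 31 had the same direction without a call. Against Pgc1b_flox_Veh the log2 fold change of C1qa was 1.06, of C1qb 0.70, of C1qc 0.17, of Csf1r 0.070, of Mertk 0.33, of Ctsk 0.82, of Src 0.95, of Prdm1 0.54, of Zfp36 0.26, of H2-Aa 2.35, of Fn1 0.52 and of Ccl5 0.69. It was -1.75 for Ccl2, -0.22 for Ccnd1, -0.26 for Cdkn2c, -0.44 for Fosl2, -0.37 for Il1rn, -1.35 for Mmp12, -0.38 for Mthfd2, -0.84 for Phgdh, -0.34 for Rbpj, -0.62 for Scd2, -0.065 for Slc2a1 and -0.21 for Vim. Against Veh it was 1.89 for Fn1, -2.48 for H2-Ab1, -1.03 for Mmp12 and 0.14 for Trib3, and against DMSO_Veh 0.52 for Ccl5 and -0.65 for Mmp12. Leaving out 1 of the 4 libraries, Ccl5 ranged from -2.79 to 0.094, the latter without WT_Veh replicate 2. The causes were not tested. Depth limits the genes under about 3 counts per library, for which a change was not detectable.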

Other observations

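Several other groups of genes were also measured in this comparison. Antigen presentation genes of MHC class II gave 1 of 8 higher and 3 lower, but the direction turned with the vehicle group. Of the 7 in the joint fit, 0 were higher and 6 lower against Veh, and 5 were higher and 1 lower against Pgc1b_flox_Veh (edgeR, adjusted p under 0.05 and 1.5-fold). Ciita, the master regulator of the class, fell from 6.26 and 8.69 CPM in vehicle to 3.20 and 3.35 CPM with RANKL (log2 fold change -1.19 ± 0.20), and the peptide loading genes H2-DMa (16.4 and 22.3 CPM to 10.6 and 12.4 CPM, -0.75) and H2-DMb1 (-0.71) fell with it. The abundant chains overlapped between the groups. H2-Aa had 56.5 and 84.3 CPM in vehicle and 62.5 and 76.7 CPM with RANKL, and H2-Ab1 41.0 and 55.7 CPM and 45.8 and 56.7 CPM. The log2 fold change of H2-Aa was -2.81 against Veh and 2.35 against Pgc1b_flox_Veh. Genes of alternative activation, the state that IL4 induces, were split. Arg1 (arginase 1) rose from 1 and 0 counts to 49 and 32 counts, Chil3 (Ym1) from 0.894 and 0.684 CPM to 179.8 and 173 CPM (7.79 ± 0.14) and the lectin gene Mgl2 from 0 and 2 counts to 28 and 22 counts. Fn1 (fibronectin) fell from 116 and 97.8 CPM to 33.4 and 36.4 CPM (-1.62 ± 0.23) but was called higher against another vehicle group, Veh. Against IL4, 10 of the 11 tested genes of this list were lower with RANKL and 1 higher, where 47.7% of all genes were called in either direction.

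Dendritic cell markers were higher in 6 of 9 cases and lower in 2, but their sum fell. It was 198 to 217 CPM in vehicle and 98.5 to 103 CPM with RANKL. In vehicle, 5 of the 10 members listed were at 3 counts or fewer in both libraries. Flt3, the receptor of dendritic cell and stem cell growth factor, rose from 2 and 0 counts to 12 and 11 counts and Dpp4 (CD26) from 0 and 0 counts to 10 and 15 counts, whereas Itgax (CD11c) fell from 139 and 124 CPM to 70.4 and 74.8 CPM (-0.86 ± 0.066). In the respiratory chain, 6 of 21 genes were higher and none lower (median 0.42), such as Atp5b (362 and 355 CPM to 639 and 653 CPM, 0.85 ± 0.050) and Cox5a (0.94), and 7, 9 and 1 of 20 were higher against Veh, DMSO_Veh and Pgc1b_flox_Veh. Serine synthesis genes rose with vehicle as the reference, Psat1 from 13.8 and 12.3 CPM to 53.9 and 56.2 CPM (2.07 ± 0.094), Phgdh by 1.47 and the mitochondrial folate enzymes Shmt2 and Mthfd2 by 1.78 and 1.92. The amino acid transporter gene Slc7a5 rose from 4.54 and 4.17 CPM to 39.5 and 41.5 CPM (3.21 ± 0.14). Of the 14 members of the serine and amino acid stress response list, 7 were called higher and 3 lower. Their log2 fold changes ran from -1.28 to 4.39. The stress gene Ddit3 (CHOP) fell from 20.6 and 18.7 CPM to 8.83 and 7.32 CPM (-1.28 ± 0.13), and the log2 fold change was -1.08 for Sesn2 and -0.80 for Trib3. With Pgc1b_flox_Veh as the vehicle, 2 of 13 genes of that list were higher and 6 lower.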
